A study of Mus musculus with 7 samples.

Results

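The activator protein 1 (AP-1) genes and a pair of immediate early genes were followed in J558 tumours of mice given oil palm phenolics (OPP). The members were the 10 genes Fos, Fosb, Fosl1, Fosl2, Jun, Junb, Jund, Atf3, Egr1 and Ier2. They were chosen by their gene symbol, with earlier results of these data known. They were measured by 12 of the 23978 probes, 3 of them for Fosl2 and 1 for each other gene. J558 cells are IgA-secreting myeloma cells, a tumour of plasma cells, and were grown under the skin of the neck in male BALB/c mice, the strain they came from. The 3 OPP samples were from mice that drank OPP at 1500 ppm gallic acid equivalent (GAE) for 4 weeks, and the 4 control samples from mice that drank distilled water. All mice were 10 weeks old by the sample labels and ate standard chow. A tumour of this kind holds host cells beside the myeloma cells. By the study's methods the RNA samples of highest integrity were picked for the arrays and outliers were then removed. Whether each sample was a separate mouse is not stated in the labels, and a p-value here reflects only how far these samples lie from each other.

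AP-1 is a dimer of basic leucine zipper (bZIP) proteins. Fos proteins pair with Jun proteins, and the dimer binds a short DNA element in the promoters of genes for growth, invasion and stress. Many of these genes are immediate early genes. Growth factors, cytokines, stress or the handling of tissue switch them on within minutes through MAP kinases and factors already in the cell, and their RNA is short-lived. Several are also switched on in activated lymphocytes and macrophages.

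The promoter sequences of 7 members show which elements lie close to their starts. Over the 250 bases before each start, the TGACG core of the cAMP response element (CRE), searched on both strands, was found in 4 of the 7, in Fos, Fosb, Atf3 and Junb, beside 17.8% of all 32851 promoters of the same length. It lay at positions -129 to -125 and -66 to -62 of Fos, -60 to -56 of Fosb, -7 to -3 of Atf3 and -106 to -102 of Junb, counted back from -1 at the base before the start. The whole CRE, TGACGTCA, which contains this core, was found in 0 of the 7 and in 1.55% of all promoters. The AP-1 site TGANTCA was found in 0 of the 7 and in 6.75% of all promoters, and the CArG box, the binding site of serum response factor, in 0 of the 7 and in 1.47%. The Egr1 box GCGGGGGCG was found in 2 of the 7, Fosb and Fosl2, and in 2.57% of all promoters, and the TATA box TATAAA in Fos alone and in 12.4% of all promoters. The Fos, Fosb and Atf3 windows are shown because the signals of these 3 genes had a similar order over the arrays, and that of Junb because it holds the core and its signals did not have this order. Capitals mark the core, which reads in reverse in Atf3. The sequences run 5′ to 3′ on the strand of the gene, in build GRCm38.p6. The window of Fos is chr12:85473750-85473889 on the plus strand, that of Atf3 chr1:191183334-191183473 and that of Junb chr8:84978749-84978888, both on the minus strand. For Fosb, which has a further annotated transcript that starts upstream, only chr7:19310089-19310118 around the core is shown, on the minus strand.
Fos: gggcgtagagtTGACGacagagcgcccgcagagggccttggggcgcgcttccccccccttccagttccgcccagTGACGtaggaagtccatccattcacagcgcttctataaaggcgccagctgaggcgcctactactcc
Fosb: atggagttgcgggTGACGcaagcgcggggg
Atf3: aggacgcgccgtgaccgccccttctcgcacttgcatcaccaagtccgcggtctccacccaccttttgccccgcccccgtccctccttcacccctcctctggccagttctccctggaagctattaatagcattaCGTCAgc
Junb: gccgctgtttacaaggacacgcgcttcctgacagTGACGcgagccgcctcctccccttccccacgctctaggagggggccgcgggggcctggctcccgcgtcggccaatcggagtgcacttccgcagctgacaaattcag
A match is a match of letters and was not tested as a binding site.

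A signal is the deposited normalised intensity of a probe. It was taken as above background when it exceeded the noise of its array at a detection level of 0.99, a limit of 20.7 to 26.7, and 44.4% to 47.0% of probes on an array did so. A probe was tested when it was above this limit on every array of at least 1 group, which 10366 probes were. Values under 10 were set to 10 before log2 was taken, and log2 differences are OPP minus control. In limma 0 of the 10366 probes (0%) passed an adjusted p under 0.05, the smallest being 0.110, and 970 (9.36%) had an unadjusted p under 0.05, with 5.81% of probes higher and 3.55% lower in OPP tumours. Precision is limited by how few arrays there were, and probes of different genes are not compared in level. In whole tumours, fewer cells of a type and less RNA per cell cannot be told apart. All 7 plasma cell markers listed were above the limit on at least 1 array, with a summed signal of 23118 to 28895 in OPP tumours and 22700 to 27057 in control tumours. Most of each sum was Xbp1, at 15391 to 20728, so the sums say little of the other markers. The log2 differences of 5 of the 7 were below 0 and of 2 above 0. Skeletal muscle markers, measured for 7 of 8 genes listed, summed to 86.2 to 4795 in OPP and 6660 to 28534 in control tumours, and these ranges did not overlap. Control replicate 1 and OPP replicate 3 stood apart in the results below, and the members are given with and without them.

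Of the 12 member probes, 8 were above the limit on at least 1 array and 7 were tested, 1 each for Fos, Atf3, Fosl2, Jun, Junb, Jund and Egr1. In limma 0 of the 7 passed an adjusted p under 0.05, with adjusted p from 0.574 to 0.935, and 0 had an unadjusted p under 0.05, beside 9.36% of all tested probes. The groups overlapped for every member, beside 9.70% of tested probes whose groups did not overlap. The log2 differences of 3 were above 0 and of 4 below 0, with a median of -0.03, beside a median of 0.01 over all tested probes. The panels of signals on each array show how the arrays lay.

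**Figure D1:**
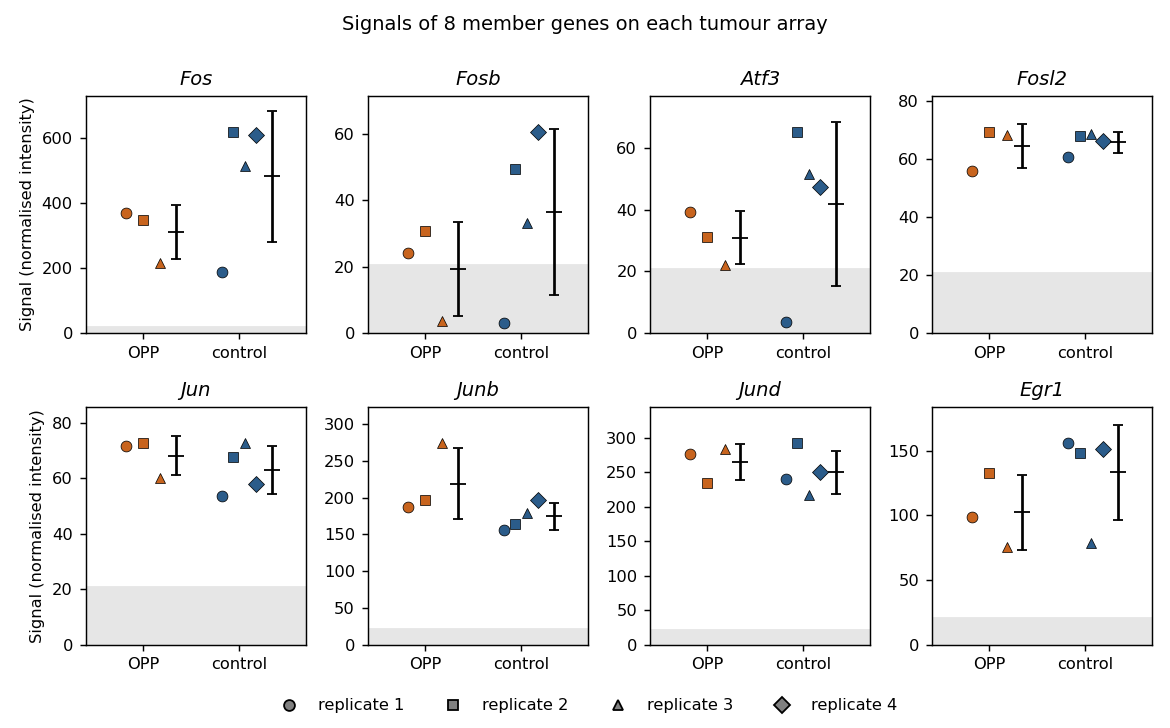
Signal (normalised intensity) of the 8 members above background on at least 1 array, in OPP (left) and control (right) tumours. Points are arrays, shaped by replicate number, bars are mean ± SD, and the grey band reaches to 20.7, the lowest background limit of the 7 arrays. Control replicate 1 is the lowest control array for all of these genes but Jund and Egr1. The share of all probes lowest on that array was not counted. Its median signal over all probes was the lowest of the 7 arrays, at 14.1 beside 15.0 to 17.3 on the others.

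Among the Fos proteins, Fos itself, the founding partner of Jun in AP-1, had signals of 369.7, 347.5 and 216.7 in OPP tumours, against 187.4, 617.9, 513.0 and 607.5 in control tumours. All 3 OPP arrays lay below control replicates 2, 3 and 4 and above control replicate 1. The means were 311 ± 82.7 (SD, n = 3) in OPP and 481 ± 202 (SD, n = 4) in control tumours. For Fos the log2 difference was -0.52 (SE 0.44, 95% interval -1.54 to 0.49, adjusted p = 0.725 from limma), and the exact permutation test gave p = 0.40, where 4 arrays against 3 allow no p below 0.0571.

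Fosb, which also pairs with Jun and has a truncated form known from the brain, had signals of 24.1, 30.7 and 3.6 in OPP tumours, against 3.0, 49.4, 33.2 and 60.6 in control tumours. It was above the limit on 2 of 3 OPP and 3 of 4 control arrays, so it was not tested in limma. The arrays below the limit were OPP replicate 3 and control replicate 1. The exact permutation test gave p = 0.40 for a log2 difference of -0.70, in which both of these arrays stood at the floor of 10.

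Fosl2, which encodes Fra-2, had signals of 55.8, 69.3 and 68.3 in OPP tumours, against 60.5, 68.0, 68.4 and 66.1 in control tumours by its brightest probe. The arrays of both groups lay within a 1.24-fold range. OPP minus control gave a log2 difference of -0.03 (SE 0.11, 95% interval -0.29 to 0.22, adjusted p = 0.935 from limma). The other probes of Fosl2 were below the limit on all 7 arrays, at 8.3 to 19.9 and at -12.6 to 0.9. Fosl1, which encodes Fra-1, had -8.1 to 12.1 and was below the limit on all 7 arrays as well.

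Among the Jun proteins, Jun, which binds DNA as a dimer with Fos or with itself, had signals of 71.9, 72.7 and 60.3 in OPP tumours, against 53.7, 67.9, 72.8 and 57.9 in control tumours. The groups overlapped through most of their range. In limma the log2 difference was 0.12 (SE 0.14, 95% interval -0.20 to 0.44, adjusted p = 0.798 from limma).

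Junb, a family member that can restrain Jun, had signals of 187.2, 196.4 and 274.6 in OPP tumours, against 156.5, 164.6, 179.8 and 197.2 in control tumours. OPP replicate 3 was the highest of the 7 arrays, and the other OPP arrays lay between control replicates 3 and 4. The means were 219 ± 48.0 (SD, n = 3) in OPP and 175 ± 17.9 (SD, n = 4) in control tumours, a log2 difference of 0.31 (SE 0.16, 95% interval -0.05 to 0.68, adjusted p = 0.574 from limma). This was the smallest p among the members, and the exact permutation test gave p = 0.171. Without OPP replicate 1 the log2 difference was 0.42 (unadjusted p = 0.0479, adjusted p = 0.507 from limma). Without OPP replicate 3 it was 0.14 (unadjusted p = 0.299, adjusted p = 0.827 from limma).

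Jund, the member of the family that resting cells express most steadily, had signals of 276.4, 234.6 and 283.1 in OPP tumours, against 239.5, 292.1, 217.5 and 250.5 in control tumours. The log2 difference was 0.09 (SE 0.13, 95% interval -0.21 to 0.39, adjusted p = 0.847 from limma). The signals of all 7 arrays lay within a 1.34-fold range.

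Atf3, a stress-induced bZIP protein that pairs with Jun and represses many promoters, had signals of 39.2, 31.2 and 22.2 in OPP tumours, against 3.8, 65.1, 51.4 and 47.2 in control tumours. Control replicate 1 was below the limit, and the OPP arrays lay below the other 3 control arrays. For Atf3 the log2 difference was -0.24 (SE 0.62, 95% interval -1.68 to 1.21, adjusted p = 0.914 from limma). It passed the filter through the OPP arrays, and the value of control replicate 1 in this fit is the floor of 10. With a floor of 20 the log2 difference was -0.49, and with a floor of 50 it was -0.11.

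Egr1, a zinc finger factor induced by serum and mitogens, had signals of 98.8, 132.9 and 75.5 in OPP tumours, against 155.9, 147.9, 78.6 and 151.3 in control tumours. The OPP arrays lay below control replicates 1, 2 and 4, while control replicate 3 was near the lowest OPP array. OPP minus control gave a log2 difference of -0.37 (SE 0.29, 95% interval -1.04 to 0.31, adjusted p = 0.712 from limma). Without control replicate 3 it was -0.61 (unadjusted p = 0.0237, adjusted p = 0.554 from limma), and without OPP replicate 3 it was -0.17 (adjusted p = 0.936 from limma). Ier2, a small nuclear protein gene of the immediate early class, was below the limit on all 7 arrays, with signals of -12.0 to 0.8.

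**Figure D2:**
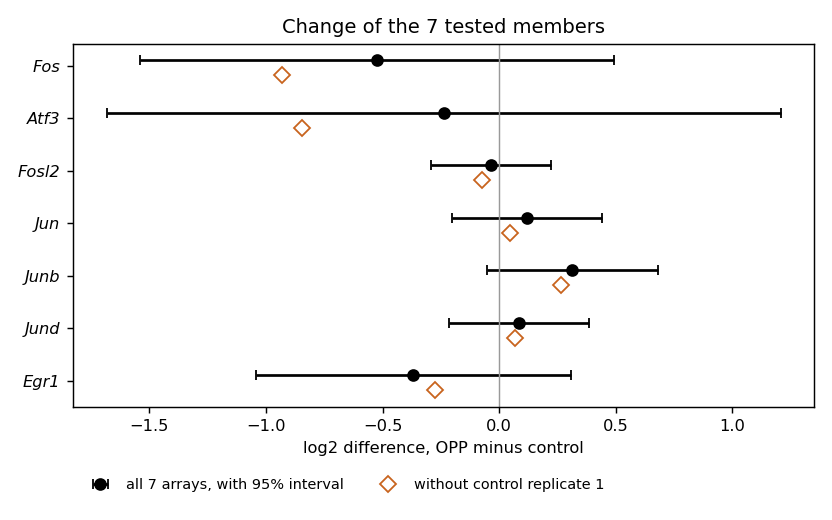
The log2 difference of the 7 tested members, OPP minus control, over all 7 arrays (black points, bars are 95% intervals from limma) and without control replicate 1 (open diamonds). All intervals include 0, and those of Fos and Atf3 are the widest, with values of -0.93 and -0.85 without control replicate 1. Without OPP replicate 3, which is not drawn, they were -0.28 and -0.02.

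The members differed in how much they varied between samples of the same group. The SD of log2 signal within groups was 0.99 for Atf3, 0.69 for Fos and 0.45 for Egr1, beside a median of 0.19 over all tested probes. The SD of Atf3 depends on the floor of 10, at which control replicate 1 stood. A smaller SD was found for 96.6% of tested probes than for Fos and for 90.4% than for Egr1. Junb had an SD of 0.22, Jun 0.18, Jund 0.17 and Fosl2 0.13. The spread was thus above the median for Fos, Atf3, Egr1 and Junb and below it for Jun, Jund and Fosl2.

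Fos and Atf3 varied together over the 7 arrays. Their log2 signals had a Pearson r of 0.94 (exact permutation p = 0.00159, adjusted p = 0.0333 over 21 pairs of members) and a Spearman rho of 0.96 (exact permutation p = 0.00278, adjusted p = 0.0583). Without OPP replicate 3 and control replicate 1, the arrays farthest from the median of Fos, with control replicate 1 at the floor for Atf3, r was 0.89. None of the other 20 pairs passed an adjusted p under 0.05. Jun with Atf3 had r = 0.65 and Fos with Jun r = 0.46 (exact permutation, adjusted p = 0.980 for each), and without the 2 arrays farthest from the median these were 0.53 and -0.66. Fos with Egr1 had r = 0.17, and Junb with Egr1 had the lowest value, r = -0.61 (exact permutation, adjusted p = 0.980 for each), and without 2 arrays these were 0.31 and 0.07. Fosb, which was not tested, had its lowest signals on the same arrays as Fos, control replicate 1 and OPP replicate 3.

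The differences of Fos, Fosb and Atf3 depended on control replicate 1 and OPP replicate 3, in opposite directions. Without control replicate 1, the log2 difference was -0.93 for Fos (SE 0.22, unadjusted p = 0.00449, adjusted p = 0.234 from limma) and -0.85 for Atf3 (SE 0.23, unadjusted p = 0.00926, adjusted p = 0.281 from limma). For Fosb it was -1.25, which is given with no test, because Fosb then passed the filter only through the control arrays, where it was high, and OPP replicate 3 stood at the floor. Of the 7 member probes tested with all arrays, 2 then had an unadjusted p under 0.05, both lower in OPP tumours, beside 11.3% of the probes tested with all arrays in either direction and 6.06% lower in OPP tumours. Neither passed an adjusted p under 0.05. Without OPP replicate 3 alone, the log2 differences were smaller, at -0.28 for Fos, -0.22 for Fosb and -0.02 for Atf3. With both arrays left out, an alternative chosen after seeing the data, they were -0.69 for Fos, -0.63 for Atf3 and -0.77 for Fosb. These arrays were the lowest of their group for all 3 genes, so no p is given for them. No member passed an adjusted p under 0.05 in that fit. The other members then had log2 differences of -0.12 for Fosl2, 0.13 for Jun, 0.091 for Junb, 0.018 for Jund and -0.075 for Egr1 (adjusted p from 0.789 to 0.981 from limma).

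Markers of T cells and 3 of 4 measured markers of macrophages were low on the same arrays as Fos, Fosb and Atf3. Cd3e, a chain of the T cell receptor complex, had signals of 188.8, 113.7 and -2.3 in OPP tumours, against 21.6, 405.5, 324.7 and 409.0 in control tumours. The low arrays were again OPP replicate 3 and control replicate 1, which were also the lowest of their group for Cd3d and Cd2. For Cd2, control replicate 1 was only slightly lower, at 906.1 against 933.3, 995.3 and 1181.8 on the other control arrays. The T and NK cell markers, measured for 5 of 6 genes listed, summed to 685 to 1476 in OPP and 955 to 1990 in control tumours, and Ncr1 and Gzmb were below the limit on all 7 arrays. Cd2 made up most of this sum on OPP replicate 3 and control replicate 1. The macrophage markers, measured for 4 of 6 genes listed, summed to 2068 to 4331 in OPP and 2201 to 5218 in control tumours. The macrophage markers C1qa, C1qb and Adgre1 were lowest on OPP replicate 3 and control replicate 1 in each group. Mrc1, the macrophage mannose receptor, had the other order, with signals of 207.4, 204.2 and 273.5 in OPP tumours, against 296.5, 202.1, 142.0 and 291.9 in control tumours, and was highest of each group on those arrays. OPP replicate 3 and control replicate 1 had the lowest sum of their group for both lists. The muscle markers had another order, and their lowest sum was that of OPP replicate 1. Neutrophil markers, measured for 5 of 6 genes listed, were also lowest on OPP replicate 3 (67.4) and control replicate 1 (90.9). Fibroblast markers, measured for 6 of 6 genes listed, summed to 3920 to 4971 in OPP and 4306 to 6614 in control tumours. Their highest OPP sum was that of OPP replicate 3. Endothelium markers had their highest control sum, 1297, on control replicate 1. Adipocyte markers were lowest on control replicate 1 but highest of the OPP arrays on OPP replicate 3. The part of any of these cells in the member signals was not tested.

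**Figure D3:**
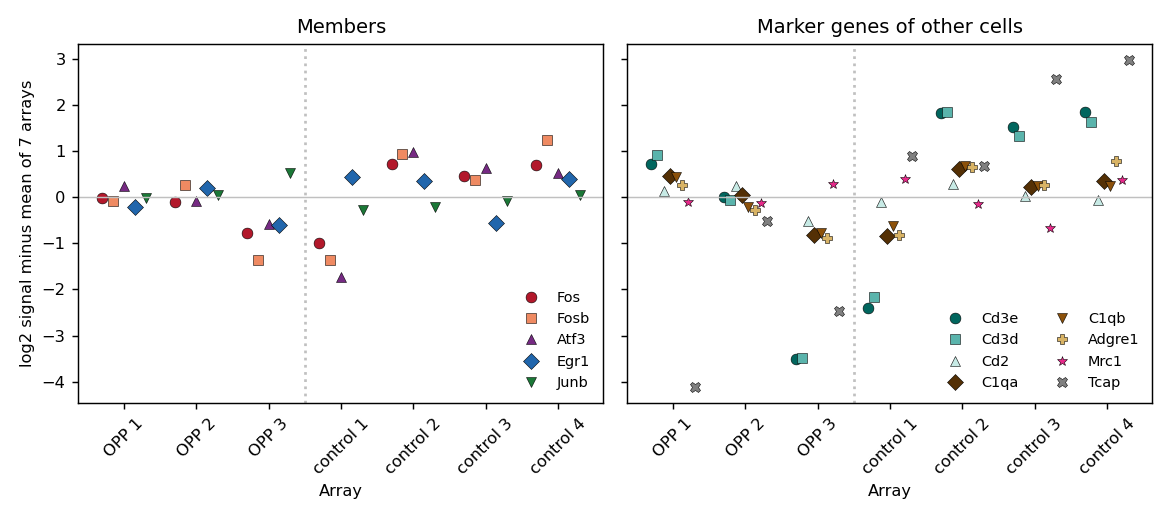
Log2 signal of 5 members (left panel) and of 8 marker genes (right panel), those of T cells (Cd3e, Cd3d, Cd2) and macrophages (C1qa, C1qb, Adgre1, Mrc1) above background and 1 of skeletal muscle (Tcap), on each array, minus the mean of the gene over the 7 arrays, with values under 10 set to 10. Fos, Fosb, Atf3, the T cell markers and 3 macrophage markers are below their mean on OPP replicate 3 and control replicate 1, where Mrc1 is above its mean.

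Among 6756 named genes above the limit on all 7 arrays, those with the pattern most like that of Fos were S100a4 (r = 0.995), Ifi44l (r = 0.993), Hsd3b7 (r = 0.992) and Celf2 (r = 0.992). S100a4, a calcium-binding protein gene active in many leukocytes and in fibroblasts, had signals of 218.1, 237.1 and 90.1 in OPP tumours, against 84.3, 564.9, 410.0 and 592.7 in control tumours. It was lowest on control replicate 1 and OPP replicate 3, as Fos was. For Jun, the most similar were Lpcat3 (r = 0.974), Mknk2 (r = 0.969), Slc9a3r1 (r = 0.965) and Msh6 (r = 0.959). These r values are over 7 arrays that share their group structure and are the highest of 8289 probes, so no p is given.

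Related genes were examined in 6 lists that held 86 tested genes in all. The lists were written from general knowledge, with earlier results of these data known. In limma 0 of these passed an adjusted p under 0.05. By the unadjusted p, 2 genes passed 0.05 with higher and 1 with lower signals in OPP tumours, 3.49% of the genes, beside 8.46% of all 7188 named genes tested. The median log2 difference over the 86 was 0.03, beside 0.00 over all named genes tested.

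Of the kinases and factors upstream, 14 of 30 genes listed were tested, and 1 had an unadjusted p under 0.05, being lower in OPP tumours. This was Srf, the serum response factor, which switches on Fos and Egr1 through the CArG box. No such box was found in the 250 bases searched of Fos, sites farther away were not searched, and Egr1 was not among the 7 promoters. The signals of Srf were 396.0, 403.0 and 355.9 in OPP tumours, against 465.1, 478.6, 497.9 and 443.6 in control tumours. The groups did not overlap, as for 9.70% of all tested probes. In limma the log2 difference was -0.29 (SE 0.09, unadjusted p = 0.0141, adjusted p = 0.441 from limma). Mapk9, which encodes the Jun kinase JNK2, had a log2 difference of -0.25 and Map2k2, a kinase that activates ERK, one of 0.11 (adjusted p = 0.632 and 0.700 from limma).

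Of the feedback inhibitors, 12 of 20 were tested, with 1 higher and 0 lower. Dusp6, a phosphatase that switches off ERK, had signals of 396.3, 486.8 and 452.1 in OPP tumours, against 355.3, 363.2, 394.0 and 257.1 in control tumours. The lowest OPP array lay just above the highest control array. The log2 difference was 0.39 (SE 0.16, unadjusted p = 0.0446, adjusted p = 0.516 from limma). Nab1, a corepressor of Egr proteins, had a log2 difference of -0.22 (adjusted p = 0.543 from limma).

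Of the other immediate early genes, 23 of 35 were tested, and 0 had an unadjusted p under 0.05. The smallest p were those of Phlda1, Gadd45a, Klf4 and Sgk1, with log2 differences of 0.45, 0.19, -0.96 and -0.37 (adjusted p = 0.562, 0.579, 0.580 and 0.613 from limma). Without control replicate 1, 9 of the 86 list genes had an unadjusted p under 0.05, beside 10.8% of the named genes tested with all arrays, and 0 passed an adjusted p under 0.05. Named after their values were seen, Klf2, Egr2, Sgk1 and Klf4 among them had log2 differences of -0.72, -0.58, -0.52 and -1.24, and Egr3 had one of 0.32.

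Of the bZIP partners and relatives, 13 of 20 were tested, and 0 had an unadjusted p under 0.05. The smallest p were those of Mafg, Jdp2, Ddit3 and Maff, with log2 differences of -0.19, -0.22, 0.39 and 0.20. Jdp2 encodes a repressor that pairs with Jun, and Ddit3 encodes CHOP, a factor of the unfolded protein response.

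Of known targets of AP-1 and Egr1, 15 of 22 were tested, with 1 higher and 0 lower and a median log2 difference of 0.16. Mmp13, which encodes a collagenase with an AP-1 site in its promoter, had signals of 721.0, 907.9 and 1506.7 in OPP tumours, against 329.0, 240.2, 163.0 and 168.6 in control tumours. The lowest OPP array was above the highest control array. For Mmp13 the log2 difference was 2.21 (SE 0.32, unadjusted p = 1.77e-04, adjusted p = 0.196 from limma). This difference was known before the list was written, so it is a description. Mmp10, Icam1 and Cd44 had log2 differences of 0.65, 0.24 and 0.34 (adjusted p = 0.579, 0.615 and 0.670 from limma).

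Heat shock genes respond, as immediate early genes do, to stress and to the handling of tissue. Of 14 listed, 9 were tested, and 0 had an unadjusted p under 0.05. The log2 differences of 8 were above 0, and the median was 0.18, beside -0.004 over all named genes tested. The share of all tested genes above 0 was not counted. Dnajb1, a cochaperone of Hsp70, had signals of 2444.3, 1903.1 and 2721.4 in OPP tumours, against 1937.7, 1646.0, 2030.9 and 1852.8 in control tumours, a log2 difference of 0.32 (SE 0.14, adjusted p = 0.536 from limma). OPP replicate 2 lay within the control range. Bag3 and Hsph1 had log2 differences of 0.24 and 0.30, and Hsp90aa1 had 0.18.

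**Figure D4:**
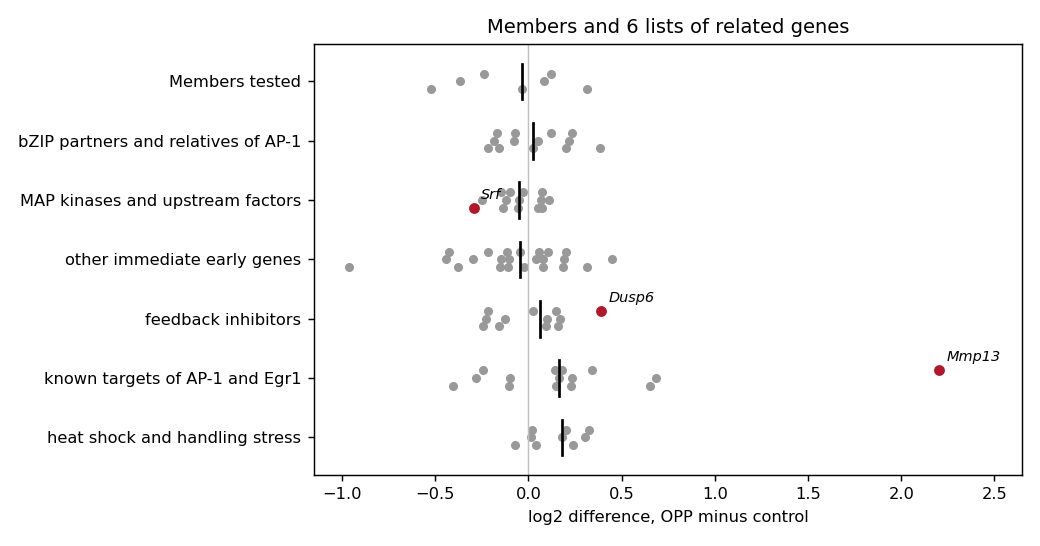
The log2 difference of each tested gene, OPP minus control, for the 7 members and the 6 lists of related genes. Points are genes by their brightest probe, red points have an unadjusted p under 0.05 in limma (Srf, Dusp6 and Mmp13) and black lines are medians, which run from -0.05 to 0.18.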

How the data were processed

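RNA of 7 tumour samples was measured on single-colour Illumina MouseRef-8 BeadChips, at 1 array per sample. The authors extracted the deposited intensity values with BeadStudio 1.5.1.3, subtracted the background, removed outlier samples by hierarchical clustering and normalised the arrays by the rank invariant method. The values are on a linear scale. A further table, whose 14 columns of raw signal and detection carry names that match no sample, was not used here. Slide and scan dates are not given in the sources used here, so no batch was tested.

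Of 24048 probes, 66 had no value and 4 were bacterial controls, and these were dropped, while a ribosomal RNA probe was left unnamed. The platform annotation named 19343 of the remaining 23978 probes, each with 1 gene symbol. Values under 10 were set to 10, a floor taken from the methods, and log2 was taken. The noise of an array was the root mean square of its values below 0, and a probe was tested when it exceeded this noise at a detection level of 0.99 on all arrays of either group. The test was limma 3.58.1 (lmFit, then eBayes, in R 4.3.3), and its two-sided p-values were adjusted across every tested probe after Benjamini and Hochberg. The brightest probe stands for a gene that has more than 1. Exact permutation tests were two-sided, with the smaller tail doubled. Python 3.11.15, pandas 2.3.3 and matplotlib 3.10.9 served for tables and plots. Promoter sequences are those of RefSeq, build GRCm38.p6, and 7 of the 10 members matched.

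All members are named with each of their probes, and of each list up to 4 genes with the smallest p. For Fos and Jun the 4 most similar genes are named. The study's own array test, the error model of the array maker's software, was not run. The members and lists were chosen with earlier results of these data known. Alternatives were quantile normalization, median scaling, floors of 20 and 50, testing all probes or only those detected on all 7 arrays, a prior that was trended and robust, array weights, a two-sided t-test with equal variance, a block for replicate number, averaging the probes of a gene, and leaving out each array.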

Additional observations from a re-analysis of the deposited data

Results flagged for a closer look

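For 32 genes, the 8 members above background and the 24 genes of the lists with the smallest p, the 4 control arrays were checked for an array far from the others on the log2 scale. The gap to the nearest other array was set against the whole range, with Dixon's 95% critical value for 4 samples. Chance alone gives such an array in about 1 in 20 genes, and 3 of the 32 genes were found. Some of these genes vary together, so they are not independent checks. Fos on control replicate 1 had a signal of 187.4, against 513.0 to 617.9 on the other control arrays (gap over range 0.844). Atf3 on the same array had 3.8, against 47.2 to 65.1, but entered the check at the floor of 10 and was not flagged. Egr1 on control replicate 3 had 78.6, against 147.9 to 155.9 (gap over range 0.923). Phlda1, an immediate early gene outside the members, had 382.0 on control replicate 3, against 476.4 to 487.9 (gap over range 0.902).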

How the results depend on the processing

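No member passed an adjusted p under 0.05 under any alternative run. Leaving out each array gave log2 differences of -0.93 to -0.28 for Fos, -1.25 to -0.22 for Fosb, -0.85 to 0.054 for Atf3, -0.089 to 0.067 for Fosl2, 0.05 to 0.21 for Jun, 0.14 to 0.42 for Junb, 0.02 to 0.17 for Jund and -0.61 to -0.17 for Egr1. Atf3 changed sign without control replicate 2 (0.054) and Fosl2 without OPP replicate 1 (0.067), and no other direction changed under the alternatives run. The count of member probes at an unadjusted p under 0.05, 0 with all arrays, was 0 to 3 with each array left out in turn (3 without control replicate 1, of which Fosb passed the filter only through the control arrays, and 1 without OPP replicate 1 and 1 without control replicate 3), 1 with the replicate block (Junb) and 3 without both control replicate 1 and OPP replicate 3. Those 3 were Fos, Fosb and Atf3, for which the 2 arrays left out were the lowest of their group. The count of all tested probes past an adjusted p under 0.05, 0 with all arrays, was 2 with quantile normalization, 2 with a floor of 50, 1 with a floor of 20, 1 with a trended and robust prior, 0 to 4 with each array left out in turn (4 without OPP replicate 2, 1 without OPP replicate 1 and 1 without control replicate 4) and 2 without both arrays. The count of list genes at an unadjusted p under 0.05 was 3 of 86 tested with all arrays. It was 7 of 86 with a floor of 50 and 9 of 117 with no filter. A trended and robust prior gave 5 of 86, and a t-test of equal variance 6 of 86. Over all probes these settings gave 986 of 10366, 1197 of 23978, 956 of 10366 and 908 of 10366. With each array left out in turn the count was 3 to 10. Without control replicate 1 it was 10 of 88, of which 9 were also tested with all arrays. Without OPP replicates 1, 2 and 3 it was 5 of 88, 5 of 86 and 5 of 88. Over all probes these gave 1032 of 10515, 924 of 10664 and 838 of 10509. Without both arrays it was 10 of 88. The cause was not tested. Split by direction, probes with an unadjusted p under 0.05 numbered 602 higher and 368 lower in OPP tumours with all arrays, 319 higher and 619 lower with median scaling, and 545 higher and 742 lower without control replicate 1. The t-test with equal variance, which the study's methods name for its other outcomes and not for the arrays, had 908 probes with an unadjusted p under 0.05 and 0 after Benjamini-Hochberg adjustment. Samples of the 2 groups share only a number: deviations of same-numbered samples correlated at -0.27, 0.08 and -0.17, and OPP replicate 3 correlated best with control replicate 1 (0.48). The replicate block gave 683 probes at an unadjusted p under 0.05, against 970 without it, and a log2 difference of -0.36 for Fos and 0.37 for Junb. Only the control group has a replicate 4, so the block takes control replicate 4 out of the comparison. Leaving that array out gave the same 2 log2 differences. Signals near background limit Fosb and Atf3: a floor of 50 gave log2 differences of -0.07 and -0.11, and a floor of 20 gave -0.61 and -0.49. Array weights gave -0.21 for Egr1.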
